A study of Mus musculus with 9 samples.

Results

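Interleukins are secreted proteins that carry signals between immune, epithelial and stromal cells, and each is read by a receptor built from 1 or more membrane chains. The genes described here are the 82 interleukin and interleukin receptor genes of 24505 listed in a table of nascent transcription, chosen by a symbol that begins with Il and a number. The symbol rule also takes in genes that are neither, such as Il4i1 (a secreted enzyme that degrades amino acids), Il18bp (a soluble decoy that binds IL-18) and Il1bos (a transcript antisense to Il1b). Of the 82, 43 passed a filter on low values (at least 2 of 6 libraries at a value of 10 before log2) and were tested, and 39 did not.

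The study used mouse mini-guts, which are three-dimensional cultures of intestinal epithelium, here from the duodenum. RANKL, the culture labelled intestinal M-cell, had 2 GRO-seq libraries. ENRI, labelled enterocyte, and WENRC, labelled intestinal stem cell, each had 1 library from mouse 1 and 1 from mouse 2. GRO-seq counts RNA polymerase that is transcribing a gene when the nuclei are isolated, so its values follow transcription and not the stored mRNA. What the culture names stand for, the strain and the animals' age are not given in the labels, which number the RANKL libraries without naming a mouse. H3K27me3, a histone mark laid down by the Polycomb complex and found at silent genes, was profiled by ChIP-seq, with 32.7 M tags in RANKL (the authors pooled its 2 libraries) and 36.3 M tags in WENRC (1 library). The depth of the GRO-seq libraries is not known from the log2 values.

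Receptor chains are shared between interleukins: Il6st (gp130) by the IL-6 family, Il4ra by IL-4 and IL-13, Il10rb by much of the IL-10 family and Il1rap by IL-1, IL-33 and the IL-36 cytokines. In the gut, epithelial cells are known to make IL-18, IL-33 and IL-15 and to answer IL-22 from lymphocytes through Il22ra1 with Il10rb. M cells are the epithelial cells that carry particles from the gut lumen to the lymphoid tissue below, and RANKL, a cytokine of the TNF family, is known to induce them.

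All 6 epithelial markers checked, among them Epcam and Cdh1, passed the filter in these libraries, and Krt8, Krt19 and Vil1 were called lower in RANKL than in ENRI by limma (the list's median change was -1.04, log2). The 7 enterocyte markers had summed levels of 14.48 and 14.63 in RANKL, 15.37 and 16.11 in ENRI and 12.63 and 11.27 in WENRC, with 3 called lower in RANKL than in ENRI and 4 higher in RANKL than in WENRC, and the part of either list in the results was not tested. All 8 M cell markers checked were called higher in RANKL than in ENRI, and 7 of 8 higher than in WENRC. The T and innate lymphoid list had 8 of 9 genes in the table, of which only Cd247 passed the filter. Cd3e had means of 3.01 in RANKL, 2.42 in ENRI and 2.55 in WENRC, and Ptprc, the pan-leukocyte marker CD45, had means of 3.43, 4.01 and 3.42. Of the 9 macrophage and dendritic cell markers, Ptprc among them, 7 passed the filter. Their summed levels were 9.32 and 9.19 in RANKL, 9.31 and 8.93 in ENRI and 9.61 and 9.63 in WENRC. Cd68, for example, had means of 7.87, 7.53 and 8.45. In the RANKL comparisons 0 of this list were called, and its part in the results was not tested. The summed level of that lymphoid list was 10.34 and 10.29 in RANKL, 7.87 and 7.72 in ENRI and 8.03 and 7.92 in WENRC, with Cd247 its highest gene (means 10.28, 7.59 and 7.81), and its part in the results was not tested. The 5 tuft cell markers had summed levels of 9.92 and 9.98 in RANKL, 8.90 and 8.72 in ENRI and 9.04 and 9.27 in WENRC, and their part was likewise not tested. Both mouse 1 libraries had low Xist (4.52 in ENRI and 5.42 in WENRC) against 10.90 to 12.18 in the other 4 libraries, which bears on the 5 X-linked genes of the set. Ddx3y, a gene of the Y chromosome, went the other way, at 8.49 and 8.29 in mouse 1 and 3.28 to 3.60 in the other 4. By these 2 genes both RANKL libraries were unlike mouse 1. A part of the animals' sex in the RANKL comparisons was not tested.

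Transcription in the RANKL culture was compared with that in ENRI and in WENRC. The receptor genes Il31ra, Il6st and Il4ra and the enzyme gene Il4i1 were called higher in RANKL than in either other culture, and Il18, Il22ra1, Il33 and Il1rap were called lower than in either. Against ENRI, 12 of the 43 tested genes were called by limma (adjusted p under 0.05), 4 of them higher and 8 lower, beside 20.9% of all genes tested (10.4% higher and 10.5% lower). Against WENRC, 8 of 43 were called, 4 higher and 4 lower, beside 12.1% of all genes (8.53% higher and 3.62% lower). The median change of the 43 was -0.26 on the log2 scale against ENRI and 0.00 against WENRC, beside medians of 0.00 and -0.01 over all genes tested. Both comparisons use the same 2 RANKL libraries, so they are not independent of each other. In the authors' deposited table, 12 of the 43 had an adjusted p under 0.05 against ENRI (19.6% of all genes) and 12 against WENRC (27.8%), with Il31ra, Il6st, Il4ra, Il4i1, Il18, Il22ra1, Il33 and Il1rap among them each time. Without RANKL replicate 1 the calls against ENRI came down to Il18 and Il22ra1, without RANKL replicate 2 to Il18, and against WENRC no gene in the whole table was called when either of them was left out (9 of the 43 had an unadjusted p under 0.05 in each case). Calls against WENRC fell without WENRC replicate 1 or 2 and rose without ENRI replicate 1 or 2, in the set and over all genes tested alike. In bulk cultures, fewer cells of a type and less transcription per cell cannot be told apart.

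**Figure D1:**
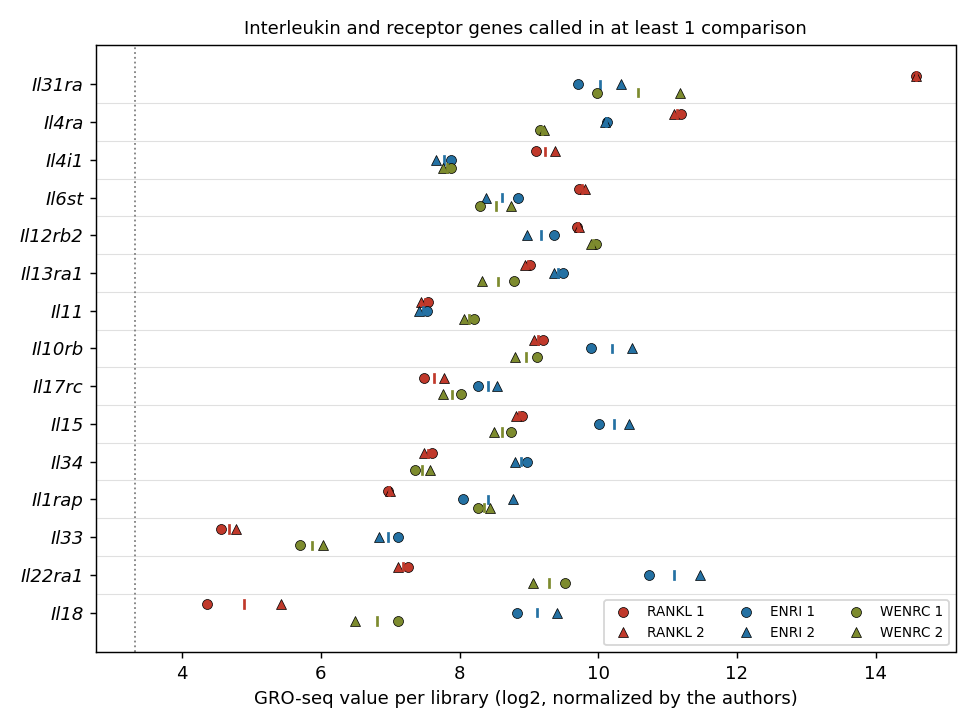
GRO-seq value (log2, as normalized by the authors) of each library for the 15 genes called in at least 1 comparison; circles are replicate or mouse 1, triangles replicate or mouse 2, short bars the culture means, and the dotted line the filter at log2 of 10. The 2 RANKL libraries lie above the other 4 for Il31ra, Il4ra, Il4i1 and Il6st and below them for Il18, Il22ra1, Il33 and Il1rap.

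The promoters of these 4 higher genes are shown because these genes were called higher in RANKL, with the 250 bases before the RefSeq start on GRCm38.p6, a build other than that of the files, matched by symbol. Capitals mark a match to 1 of 3 motifs searched on both strands, which are a kappa B type motif, an AP-1 type TGANTCA and an Ets type GGAAGT.
Il31ra, chr13:112580663-112580912, minus strand: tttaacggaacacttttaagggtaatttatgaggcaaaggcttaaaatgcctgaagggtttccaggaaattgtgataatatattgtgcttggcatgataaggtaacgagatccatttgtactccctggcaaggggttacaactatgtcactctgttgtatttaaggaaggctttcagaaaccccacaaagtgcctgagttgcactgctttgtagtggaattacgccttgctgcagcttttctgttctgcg
Il6st, chr13:112463820-112464069, plus strand: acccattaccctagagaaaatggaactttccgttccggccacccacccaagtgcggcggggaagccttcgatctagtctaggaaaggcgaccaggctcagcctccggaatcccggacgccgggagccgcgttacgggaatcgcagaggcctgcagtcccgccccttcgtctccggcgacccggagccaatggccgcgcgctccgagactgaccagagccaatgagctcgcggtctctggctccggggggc
Il4ra, chr7:125552021-125552270, plus strand: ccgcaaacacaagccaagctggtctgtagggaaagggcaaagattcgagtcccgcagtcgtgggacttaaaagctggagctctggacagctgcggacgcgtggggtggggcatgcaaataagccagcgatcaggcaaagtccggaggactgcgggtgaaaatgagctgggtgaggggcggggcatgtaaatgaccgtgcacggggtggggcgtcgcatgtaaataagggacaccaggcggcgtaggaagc
Il4i1, chr7:44836038-44836287, plus strand: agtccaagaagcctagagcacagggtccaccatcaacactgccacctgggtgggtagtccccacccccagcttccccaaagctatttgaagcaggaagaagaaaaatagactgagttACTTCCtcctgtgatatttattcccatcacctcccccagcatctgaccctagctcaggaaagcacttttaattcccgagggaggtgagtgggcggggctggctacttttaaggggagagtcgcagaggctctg
Only Il4i1 holds a match, to the Ets type on the minus strand, 133 bases before the start (ACTTCC in the letters printed). Such a match is a description, not a site: the Ets type letters are in 19.7% of the 32851 promoters of that length in the table and in 25.9% of the 81 promoters listed for 66 of the 82 genes. The AP-1 type is in 6.75% of all promoters and 17.3% of those 81, and the kappa B type in 0.356% and 2.47%.

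Among receptors of the IL-6 family, Il31ra, which binds IL-31 together with the oncostatin M receptor Osmr, had the largest rise of the set. Il31ra lies on the minus strand at chr13:113313016-113370870 (mm9). Its values were 14.58 and 14.59 in the RANKL libraries, 9.71 and 10.33 in ENRI, and 9.99 and 11.17 in WENRC. Both RANKL libraries stood well above the other 4, which overlapped one another. The rise was 4.56 ± 0.41 (log2, SE) over ENRI (limma adjusted p = 0.00294) and 4.0 ± 0.41 over WENRC (limma adjusted p = 0.00512). Among the 16563 genes tested, its rise ranked 27 from the top against ENRI and 36 against WENRC. On a level per kb of gene (log2), Il31ra was at the 99.15th percentile of tested genes in RANKL, the 61.14th in ENRI and the 75.99th in WENRC. Its partner Osmr had mean values of 5.34, 4.80 and 4.47 in RANKL, ENRI and WENRC and was not called (limma adjusted p = 0.453 and 0.277). The ligand gene Il31 had values of -1.98 to -1.97 in the 6 libraries, at the bottom of the scale.

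Il6st, the gp130 chain through which IL-6, IL-11 and related cytokines signal, sits beside Il31ra on the same chromosome (chr13:113254278-113297068, plus strand, mm9), and the 2 genes point at each other with ends 15948 bp apart. It had values of 9.73 and 9.81 in RANKL, 8.85 and 8.38 in ENRI, and 8.30 and 8.74 in WENRC. No RANKL library overlapped another culture. The changes were smaller than those of Il31ra, 1.15 ± 0.22 over ENRI (limma adjusted p = 0.0197) and 1.25 ± 0.22 over WENRC (limma adjusted p = 0.0219). The chains that give gp130 its ligand did not pass the test in the RANKL comparisons: Il6ra had values of 3.83 to 4.60 over the 6 libraries and Il11ra1 of 6.21 to 6.98. The ligand gene Il6 was under the filter at 1.08 to 1.19. Of the 16 IL-6 and IL-12 family genes, 9 were tested and 2 (Il31ra and Il6st) were called in each RANKL comparison, both higher.

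Il4ra, the chain shared by the IL-4 and IL-13 receptors (chr7:132695796-132722988, plus strand, mm9), had values of 11.19 and 11.09 in RANKL, 10.13 and 10.09 in ENRI, and 9.16 and 9.22 in WENRC. The 3 cultures did not overlap and kept the order RANKL, ENRI, WENRC. The rise was 1.03 ± 0.12 over ENRI (limma adjusted p = 0.00539) and 1.96 ± 0.12 over WENRC (limma adjusted p = 0.00166). Il13ra1, which pairs with Il4ra in epithelial cells, had means of 8.98, 9.42 and 8.56 and was not called in either RANKL comparison. The other partner, the common gamma chain Il2rg, had values near -1.98, and the ligand genes Il4 and Il13 had values of 1.30 to 1.45 and -0.47 to -0.37. Of the 17 genes of the common gamma chain and IL-4/IL-13 group, 6 were tested, and Il4ra was the call upward.

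Il4i1 encodes the IL-4 induced amino acid oxidase and not a cytokine (chr7:52091658-52096179, plus strand, mm9). It had values of 9.10 and 9.38 in RANKL, 7.88 and 7.67 in ENRI, and 7.88 and 7.76 in WENRC, with no overlap of RANKL with the others. The rise was 1.46 ± 0.17 over ENRI (limma adjusted p = 0.00490) and 1.42 ± 0.17 over WENRC (limma adjusted p = 0.00753). This value is uncertain, because 4515 bp of the gene is shared with Gm21948 on the same strand and 33 bp with Tbc1d17 on the other. Gm21948 changed by 1.24 against ENRI (limma adjusted p = 0.0106) and by 0.13 against WENRC (limma adjusted p = 0.701). Tbc1d17 rose by 1.18 and 1.39 (limma adjusted p = 0.00946 and 0.00803). The authors' counting names no strand option, and the reads of these 3 genes were not separated here.

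Il22ra1 carries the IL-22 signal into epithelial cells and was among the largest falls (chr4:135284074-135311298, plus strand, mm9). It had values of 7.26 and 7.12 in RANKL, 10.73 and 11.47 in ENRI, and 9.53 and 9.06 in WENRC. The cultures did not overlap, with RANKL lowest and ENRI highest. The change was -3.91 ± 0.28 against ENRI (limma adjusted p = 0.00204) and -2.11 ± 0.28 against WENRC (limma adjusted p = 0.00970). Among the 16563 genes, its fall ranked 22 from the largest against ENRI and 51 against WENRC. Per kb of gene (log2), its level was at the 30.56th percentile in RANKL, the 93.30th in ENRI and the 71.33rd in WENRC.

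The partner chain Il10rb (chr16:91406480-91426079, plus strand, mm9) had values of 9.20 and 9.08 in RANKL, 9.90 and 10.49 in ENRI, and 9.11 and 8.80 in WENRC. It fell by 1.05 ± 0.23 on the log2 scale against ENRI (limma adjusted p = 0.0266), and with the 4 libraries of that comparison alone the adjusted p was 0.0562. RANKL and WENRC overlapped for Il10rb (change 0.18, limma adjusted p = 0.651). Il20rb, which pairs with Il22ra1 for IL-20 and IL-24, had values of 8.65 to 9.0 and was not called. The ligand gene Il22 was at -1.34 to -1.30 in all 6 libraries. Of 11 IL-10 family genes, 4 were tested.

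The IL-1 family ligands held the set's largest fall. Il18, a cytokine made as an inactive precursor that caspase-1 cuts (chr9:50373473-50389942, plus strand, mm9), had values of 4.36 and 5.43 in RANKL, 8.83 and 9.40 in ENRI, and 7.11 and 6.50 in WENRC. The cultures did not overlap. The change was -4.22 ± 0.42 against ENRI (limma adjusted p = 0.00363), where it ranked 11 from the largest fall in the table, and -1.91 ± 0.42 against WENRC (limma adjusted p = 0.0394). After quantile normalization the WENRC comparison had an adjusted p of 0.0528. Its decoy Il18bp had the highest mean level per kb of the set (6.38, log2) and values of 7.64 to 8.45, with no call. The receptor chain Il18r1 was low, at 4.46 to 5.69, and not called.

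Il33, a nuclear alarmin released by damaged cells (chr19:29999604-30035205, plus strand, mm9), had values of 4.56 and 4.78 in RANKL, 7.11 and 6.83 in ENRI, and 5.70 and 6.03 in WENRC. Again the 3 cultures were apart, with RANKL lowest. The change was -2.30 ± 0.22 against ENRI (limma adjusted p = 0.00344) and -1.19 ± 0.22 against WENRC (limma adjusted p = 0.0235). Its receptor gene Il1rl1 (ST2) was under the filter at 1.73 to 2.0. Of the 11 IL-1 family ligands and antagonists 5 were tested, and Il18 and Il33 were the calls in both RANKL comparisons.

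Il1rap, the accessory chain that IL-1, IL-33 and IL-36 receptors share (chr16:26581791-26725233, plus strand, mm9), had values of 6.96 and 7.0 in RANKL, 8.05 and 8.77 in ENRI, and 8.26 and 8.44 in WENRC. RANKL lay below the other 4 libraries, and ENRI and WENRC overlapped. The change was -1.43 ± 0.26 against ENRI (limma adjusted p = 0.0160) and -1.37 ± 0.26 against WENRC (limma adjusted p = 0.0245). Gm20319 lies on the other strand along 10465 bp of it, with changes of -0.67 and -0.55 that were not called. Of 9 IL-1 receptor family genes 6 were tested, and Il1rap was the call in both RANKL comparisons. The primary IL-1 receptor chain Il1r1 had values of 4.48 to 5.6 and was not called.

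Il15, which sustains intraepithelial lymphocytes, and Il34, a ligand of the macrophage receptor Csf1r, were higher in ENRI than in either of the other cultures. Il15 had values of 8.90 and 8.82 in RANKL, 10.01 and 10.44 in ENRI, and 8.74 and 8.50 in WENRC. It fell by 1.37 ± 0.19 on the log2 scale in RANKL against ENRI (limma adjusted p = 0.00801). Il34 had values of 7.61 and 7.49 in RANKL, 8.98 and 8.80 in ENRI, and 7.35 and 7.58 in WENRC, a fall of 1.34 ± 0.16 on the log2 scale against ENRI (limma adjusted p = 0.00577). Neither differed by a call between RANKL and WENRC, where the differences were 0.24 and 0.08. Of the 7 genes put together as beta common chain and others, 5 were tested (Il34, Il4i1, Il16, Il3ra and Il5ra). The last 3 were not called by limma in any comparison in the fit of all 6 libraries. In the authors' deposited table Il5ra was lower in RANKL than in ENRI (log2 change -3.31, adjusted p = 0.0158). Il15ra, which presents IL-15 on the cell surface, had values of 8.25 to 8.99 and was not called. Csf1r, the receptor for IL-34, had means of 7.14, 7.16 and 7.29 in RANKL, ENRI and WENRC and was not called.

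Within the IL-17 family 8 of 10 genes were tested and 1 was called by limma in the fit of all 6 libraries. Il17rc, a chain of the receptor for IL-17A and IL-17F, had values of 7.49 and 7.78 in RANKL, 8.27 and 8.54 in ENRI, and 8.02 and 7.76 in WENRC. It was lower in RANKL than in ENRI by 0.77 on the log2 scale (change -0.77 ± 0.20, limma adjusted p = 0.0410), a call that was lost in 9 of 14 alternatives, among them the 4 libraries of that comparison alone (adjusted p = 0.0782), the replicate block (0.0655) and the authors' deposited table (0.0608). Il17ra, the chain it pairs with, had values of 7.59 to 7.86 in the 6 libraries. Il17rb had the family's highest level per kb (4.65, log2) and values of 8.16 to 8.60, with no call. Il17re had values of 4.12 and 4.25 in RANKL, 5.72 and 4.29 in ENRI, and 5.30 and 5.31 in WENRC. Its change against WENRC was -1.12 (limma adjusted p = 0.163). It was called lower than in WENRC by limma on those 4 libraries alone and in the authors' deposited table (log2 change -3.25, adjusted p = 0.00169). The cytokine genes Il17a and Il17f were under the filter.

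**Figure D2:**
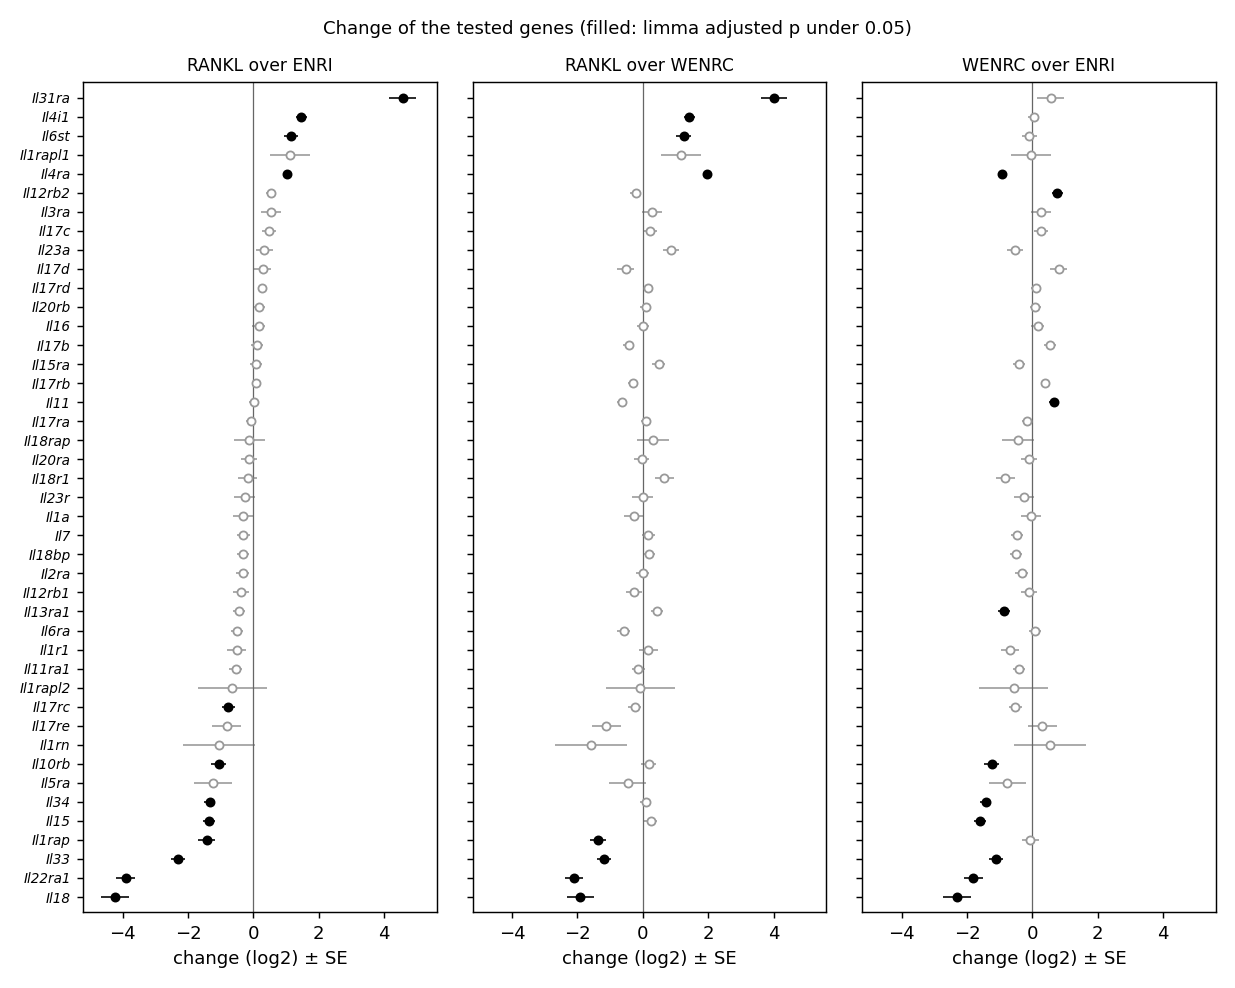
Change on the log2 scale with its SE for the 43 tested genes in the 3 comparisons, ordered by the change of RANKL over ENRI; filled points were called by limma at an adjusted p under 0.05. Il31ra is the point farthest to the right in both RANKL panels, and Il18 and Il22ra1 are the farthest to the left.

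WENRC was compared with ENRI in cultures of the same 2 mice. Il15, Il34, Il18, Il22ra1 and Il10rb were lower in the stem cell culture, along with Il4ra, Il13ra1 and Il33, and Il12rb2 and Il11 were higher. In the same comparison limma called 6 of 7 enterocyte markers lower (median change -3.60), 3 of 4 goblet cell markers lower (median -1.67) and 5 of 5 stem cell markers higher (median 2.70). The summed level of the stem cell markers was 13.70 and 13.79 in WENRC and 10.83 and 11.31 in ENRI, and that of the goblet cell markers 11.69 and 10.56 against 13.59 and 13.08. The part of these lists in the changes was not tested. In all, 10 of the 43 tested genes were called by limma, 2 higher and 8 lower, beside 14.6% of all genes (4.85% higher and 9.74% lower). The median change was -0.15 (log2), beside -0.01 over all genes tested. The largest change was that of Il18, -2.31 ± 0.42 (limma adjusted p = 0.0233), followed by Il22ra1 at -1.80 ± 0.28 (limma adjusted p = 0.0166) and Il15 at -1.60 ± 0.19 (limma adjusted p = 0.0103). Il12rb2, a chain of the IL-12 receptor, had values of 9.97 and 9.89 in WENRC and 9.37 and 8.97 in ENRI. Its rise was 0.76 ± 0.17 (limma adjusted p = 0.0361). Il11, an IL-6 family cytokine, had values of 8.21 and 8.06 in WENRC and 7.54 and 7.41 in ENRI, and rose by 0.66 ± 0.16 (limma adjusted p = 0.0434). Il13ra1 had values of 8.79 and 8.33 in WENRC and 9.49 and 9.36 in ENRI (change -0.87 ± 0.19, limma adjusted p = 0.0336). With the mouse as a replicate block 7 calls remained, and Il33 (adjusted p = 0.0502), Il12rb2 (0.0565) and Il11 (0.0705) were lost. Over all genes tested, limma called 2416 in the fit of all 6 libraries and 1506 with that block. With the 4 libraries of the 2 cultures alone, limma called 0 of all genes tested. No gene of the set was therefore called, and 12 of the 43 had an unadjusted p under 0.05. Calls fell without either RANKL or either WENRC library and rose without either ENRI library, in the set and over all genes alike. The other 28 tested genes of the set were called in none of the 3 comparisons as fitted to all 6 libraries.

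Genes that did not pass the filter include many that are known from lymphocytes and myeloid cells. The 39 had values of -1.98 to 3.57, and Il2 was listed at 0 in all 6 libraries. They included the T and innate lymphoid cytokine genes Il4, Il5, Il9, Il10, Il13, Il17a, Il17f, Il21 and Il22, the receptor chains Il2rb, Il2rg, Il7r, Il21r and Il10ra, and the myeloid genes Il1b, Il6, Il12a and Il12b. Il2rb had values of -0.19 to -0.07 and Il10ra of 1.05 to 1.27. Il1rl2, the IL-36 receptor, reached 3.57 in 1 library. Values this low stand at the bottom of the authors' transformed scale, and the comparisons reported here leave them out. When the filter was dropped, limma called 1 of them, Il11ra2, in RANKL over ENRI.

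Several of the tested genes differed between replicates of a culture. Of the 43, 6 had a gap of at least 1 (log2) between the 2 ENRI libraries, 3 between the WENRC libraries and 1 between the RANKL libraries. The median gap was 0.432, 0.222 and 0.109 in the same order. Il1rn, the IL-1 receptor antagonist, had values of 9.25 and 5.48 in ENRI, 7.95 and 7.86 in WENRC, and 6.43 and 6.21 in RANKL, and was not called in the fit of all 6 libraries (limma adjusted p = 0.542 against ENRI and 0.397 against WENRC). Its RANKL libraries lay below both WENRC libraries, and it was called lower than in WENRC by limma on those 4 libraries alone and in the authors' deposited table (log2 change -2.11, adjusted p = 1.22e-07). Il1rapl1 and Il1rapl2, X-linked relatives of the IL-1 receptor known from neurons, are 1368 kb and 1278 kb long. Il1rapl2 was higher in mouse 2 than in mouse 1 by 2.71 in ENRI and 2.37 in WENRC, and Il1rapl1 by 1.07 and 1.78. Among all tested genes of at least 500 kb (208 genes), the median difference of mouse 2 from mouse 1 was 1.57 in ENRI and 1.42 in WENRC, and for the 196 of them on autosomes 1.68 and 1.42. The 495 tested X-linked genes had medians of -0.06 and -0.05. The cause of these differences between the libraries of the 2 mice was not tested.

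**Figure D3:**
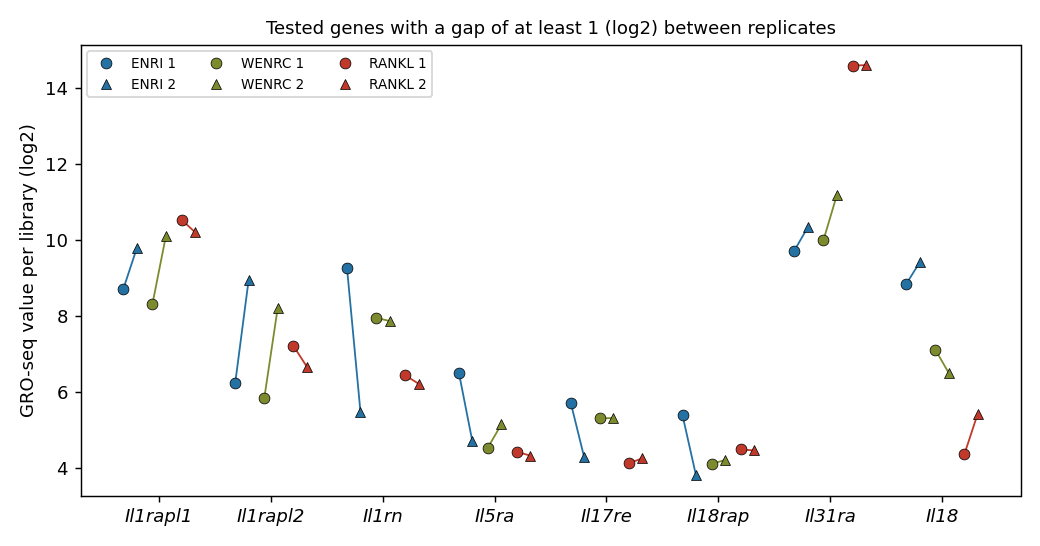
GRO-seq value (log2) per library for the 8 tested genes with a gap of at least 1 between the 2 libraries of any culture; lines join the libraries of a culture. In Il1rn the 2 ENRI libraries are at 9.25 and 5.48, with the WENRC and RANKL libraries between them.

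Genes that pass interleukin signals on were read from a list. Of 39 such genes (JAK kinases, STAT factors, MyD88 and IRAK adaptors, their inhibitors and related receptor chains), 35 were tested. Against ENRI, 5 were called lower in RANKL by limma and 0 higher, with 4 higher at an unadjusted p under 0.05 (medians -0.07 for the list and 0.00 for all genes, with 10.5% of all genes called lower): Stat5b, Nfkbiz, Irak4, Crlf2 and Tollip. Against WENRC, limma called Jak2 and Irak2 higher and Stat5b lower, out of the 35 tested. Beside this, 8.53% of all genes were called higher and 3.62% lower (medians 0.07 for the list and -0.01 for all genes). Jak2, a kinase bound to many cytokine receptors, had values of 11.17 and 11.21 in RANKL, 11.07 and 11.44 in ENRI, and 10.11 and 9.97 in WENRC, so RANKL and ENRI overlapped and WENRC was lower (change 1.15 over WENRC, limma adjusted p = 0.0127). Irak2, an adaptor kinase of IL-1 receptors, changed in the same comparison by 1.05 (limma adjusted p = 0.0136). Stat5b, a STAT factor of IL-2 and IL-15 signalling, fell by 0.71 on the log2 scale against ENRI and by 0.82 against WENRC (limma adjusted p = 0.0252 and 0.0231). In WENRC against ENRI limma called 6 lower (Jak2, Stat3, Irak2, Irak4, Casp1 and Nfkbiz) and 0 higher, with 2 higher at an unadjusted p under 0.05 (medians -0.21 for the list and -0.01 for all genes, with 9.74% of all genes called lower and 4.85% higher).

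For H3K27me3 the RANKL and WENRC cultures were set side by side in the authors' 2 lists of regions that differ by a fold of at least 2, with WENRC tags scaled by 0.9. There is 1 pooled value per culture, so no test across samples was possible, and intervals given for a fold are exact 95% intervals that cover counting error only. The 82 genes had 186 RANKL-higher and 79 WENRC-higher regions of 49405 in both lists. Within 5 kb of a start site, 24 of the 82 genes had a RANKL-higher region (29.3%, beside 19.1% of all listed genes) and 13 had a WENRC-higher region (15.9%, beside 5.44%). Il10ra, Il20ra, Il21r and Il24 had both kinds. Among the 43 tested genes the counts were 10 (23.3%, beside 18.0% of all tested genes) and 4 (9.30%, beside 5.01%), and among the 39 others 14 (35.9%, beside 21.3%) and 9 (23.1%, beside 6.33%). The median fold within 5 kb was 2.89 for RANKL-higher regions and 3.0 for WENRC-higher ones, beside 2.71 and 3.15 over each whole list. The folds of these genes ran from 2.16 to 7.41 on the RANKL side and from 2.37 to 4.5 on the WENRC side.

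Il22ra1 had 9 RANKL-higher regions and no WENRC-higher one, and Il6ra and Il2rb, likewise with none on the WENRC side, had 10 and 7. The region just before the Il22ra1 start, chr4:135281303-135283603 (mm9, intergenic), held 139 tags in RANKL and 18.9 in WENRC, a fold of 7.35 (4.63 to 12.3). The next began 39 bp after the start, chr4:135284113-135287123 (intron), with 174 and 26.1 tags and a fold of 6.66 (4.48 to 10.2). Another, in an intron at chr4:135292435-135296418, held 239 and 21.6 tags, a fold of 11.06 (7.26 to 17.6). The 3 are the most heavily tagged regions of this gene, and the gene's transcription was lower in RANKL than in WENRC, as given above.

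Il1rap had a region before its start at chr16:26580462-26581729 (promoter) with 51 and 12.6 tags, a fold of 4.05 (2.21 to 7.92). Il33 had 2, at chr19:29994905-29995405 with 19 and 3.6 tags (fold 5.28, 1.75 to 21.3) and at chr19:29998529-29999029 with 25 and 9.9 tags (fold 2.52, 1.20 to 5.69). Il22ra1, Il1rap and Il33 were the called genes among the 10 tested genes with a RANKL-higher region within 5 kb, and all were lower in RANKL in both comparisons. Over all genes tested, with or without a region, 10.5% were called lower against ENRI and 3.62% against WENRC. The share among all tested genes with such a region is not given here, and a link of the mark to transcription was not tested. The other 7 of the 10, among them Il11, Il12rb2 and Il6ra, were not called by limma in RANKL against ENRI or WENRC in the fit of all 6 libraries. Il11 was near the threshold, at 7.55 and 7.45 in RANKL and 8.21 and 8.06 in WENRC (change -0.64, limma adjusted p = 0.0519). In the authors' deposited table it was lower in RANKL than in WENRC (log2 change -0.85, adjusted p = 0.0178). No other of the 7 had an adjusted p under 0.05 there in a RANKL comparison. Il11 had regions of 162 against 67.5 tags and 115 against 37.8 tags, folds of 2.40 and 3.04. Il6ra had one that began 22 bp after its start (intron) with 64 and 19.8 tags (fold 3.23).

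The promoters of Il22ra1 and Il1rap are shown because the mark differed beside them, again as RefSeq gives them on GRCm38.p6 with the same 3 motifs searched. By distance from the mm9 start, the Il1rap region covers most of the stretch printed, and the Il22ra1 regions lie on either side of it.
Il22ra1, chr4:135727909-135728158, plus strand: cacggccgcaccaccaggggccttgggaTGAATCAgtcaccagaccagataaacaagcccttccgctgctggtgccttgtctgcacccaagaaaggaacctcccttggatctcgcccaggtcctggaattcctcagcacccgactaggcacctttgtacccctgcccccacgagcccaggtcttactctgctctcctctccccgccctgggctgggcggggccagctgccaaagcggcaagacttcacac
Il1rap, chr16:26581455-26581704, plus strand: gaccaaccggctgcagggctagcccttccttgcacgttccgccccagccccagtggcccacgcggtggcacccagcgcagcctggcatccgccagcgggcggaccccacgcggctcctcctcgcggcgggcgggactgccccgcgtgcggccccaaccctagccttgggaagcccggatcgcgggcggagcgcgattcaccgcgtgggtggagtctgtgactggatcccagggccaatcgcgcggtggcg
The Il22ra1 promoter holds 1 AP-1 type match in capitals, 222 bases before the start, and the Il1rap promoter none.

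Among WENRC-higher regions, Il6st had 2 within 5 kb, both before its start. At chr13:113250273-113250773 there were 4 tags in RANKL and 18.0 in WENRC, a fold of 4.5 (1.51 to 18.1), and at chr13:113251766-113252266 there were 7 and 20.7, a fold of 2.96 (1.23 to 8.16). Il6st was the called gene, higher in RANKL, of the 4 tested genes with such a region, the others being Il17ra, Il1r1 and Il20ra. Over all genes tested, with or without a region, 10.4% were called higher against ENRI and 8.53% against WENRC. The share among all tested genes with such a region is likewise not given. The 2 Il6st regions held few tags, so their folds have wide intervals. Il31ra, next to Il6st, had none of either kind within 5 kb: the nearest were a RANKL-higher region 7281 bp and a WENRC-higher one 9978 bp after the start, both in introns. Il4ra, Il4i1 and Il18 had no region in either list, which names only regions past the authors' fold.

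**Figure D4:**
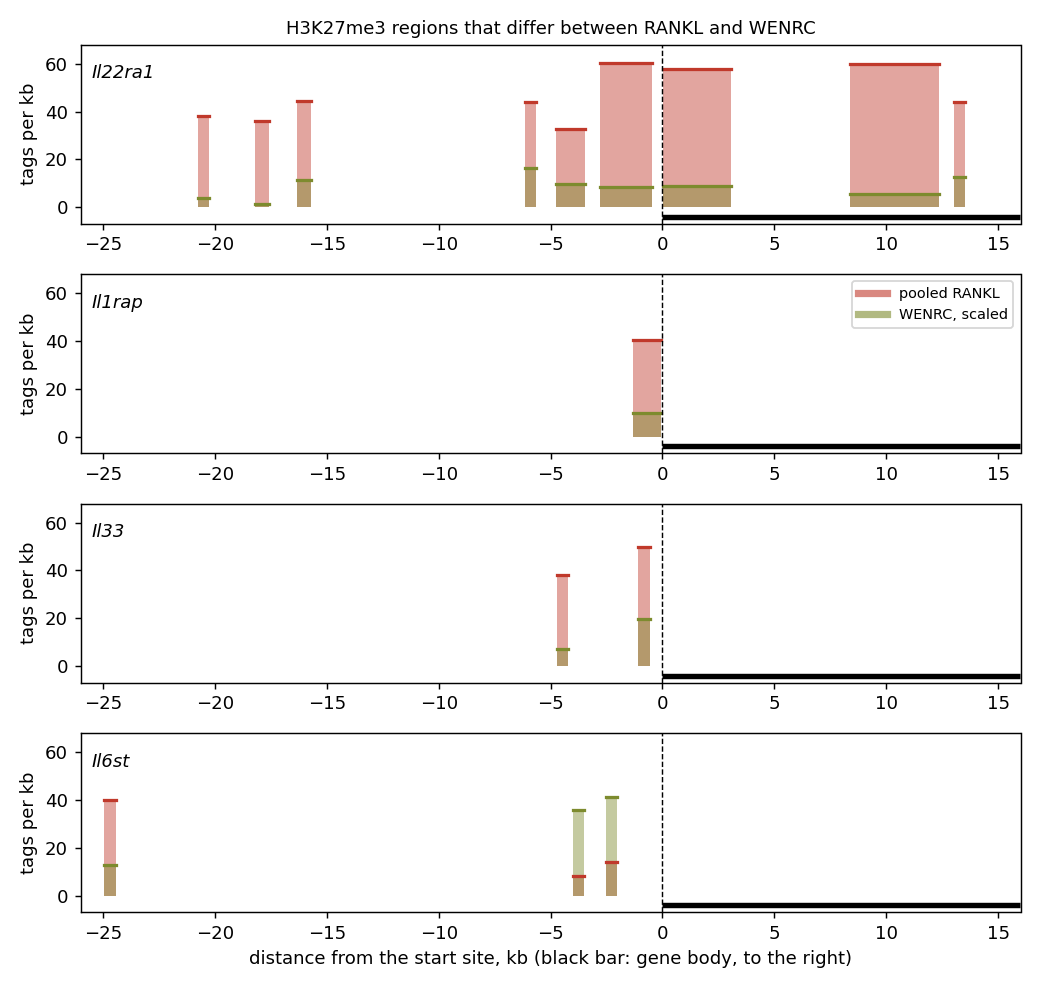
H3K27me3 regions around the start sites of 4 genes, with tags per kb of region in pooled RANKL and in WENRC scaled to the same depth, against distance from the start in kb. In Il22ra1 RANKL is above WENRC in all 9 regions, and in Il6st WENRC is above RANKL in both regions near the start.

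Genes under the filter also had regions whose H3K27me3 tags differed between the 2 cultures. Il2rb had 3 RANKL-higher regions within 5 kb, of which the strongest held 66 and 18.0 tags (fold 3.67). Il1rl2 had the highest fold near a start site, 7.41 (2.20 to 38.9), from 20 and 2.7 tags. Il3, a growth factor of blood cells, had a fold of 5.55 from 20 and 3.6 tags. On the WENRC side Il24, an IL-10 family cytokine, had a fold of 4.14 from 5 and 20.7 tags, and Il5, the eosinophil factor, had 2 regions with folds of 3.26 and 2.96. Of the 186 RANKL-higher regions, 87 were on X, 34 of them assigned to Il1rapl1 and 32 to Il1rapl2, and of the 79 WENRC-higher ones 12 were on X. The share of X among all 49405 regions is not given here. No mouse is named for the H3K27me3 libraries, and a part of the animals' sex in these counts was not tested.

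**Figure D5:**
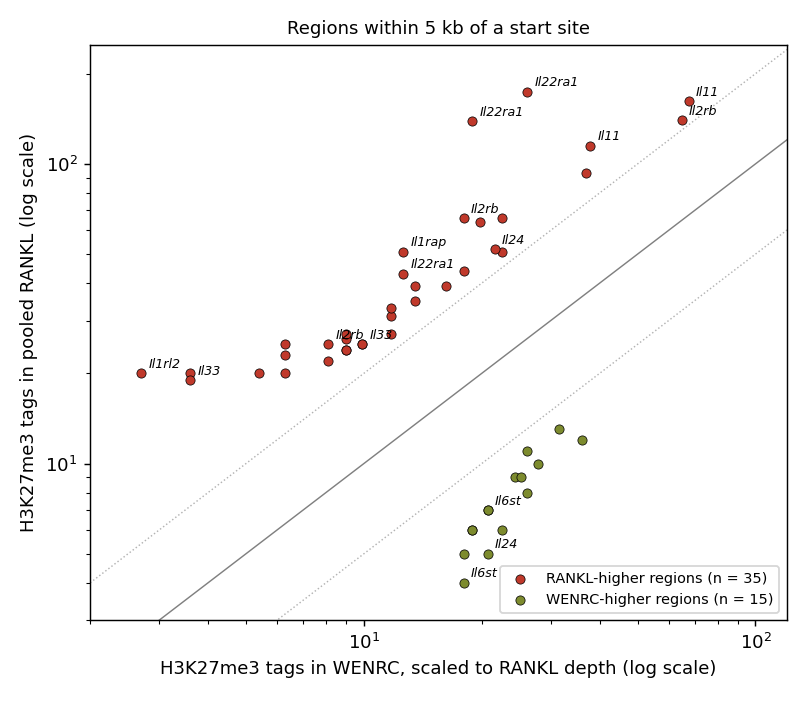
H3K27me3 tags in WENRC, scaled to the RANKL depth, and in pooled RANKL (both axes logarithmic) for regions within 5 kb of a start site, 35 RANKL-higher and 15 WENRC-higher; the solid line marks equal tags and the dotted lines a fold of 2. The Il22ra1 regions with 139 and 174 RANKL tags lie farther from the line than the Il11 regions with more WENRC tags.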

How the data were processed

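GRO-seq values are log2 values that the authors made, per the file headers, with HOMER (analyzeRepeats.pl counting reads over whole genes of mm9, then getDiffExpression.pl), and the submitters' processing notes also name Bowtie2 2.3.4.1 and DESeq2. No strand option stands in the header, and the transformation shrinks low values. Per the file headers, the RANKL libraries combine resequenced reads and each date of the other libraries holds 1 ENRI and 1 WENRC library, so sequencing and RANKL culture cannot be told apart. The authors' deposited fold and adjusted p-value columns served as an alternative, with the sign turned to match the comparison.

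H3K27me3 regions carry the authors' deposited tag counts (signal, with WENRC scaled by 0.9), a ratio (fold over the other culture) and a p-value, all as the authors gave them. Regions were assigned by the gene name in those lists, and distances within 5 kb are those the authors' lists give, which for Il11, Il1r1, Il19 and Il1r2 start from another isoform.

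Here limma 3.58.1 (R 4.3.3, trend option) was fitted to the 3 culture means of all 6 libraries over 16563 of 24505 genes, with Benjamini-Hochberg adjustment over all of them, two-sided. The labels do not say that the 2 RANKL libraries came from separate cultures or mice, so p-values measure the spread between these libraries. On simulated data for RANKL over ENRI with 16563 genes, the fit recovered 23.9% of genes with a change of 1 (log2), 68.7% at 2 and 90.9% at 4. That simulation changed 200 genes and drew the noise of each library independently, whereas 3464 genes were called in the data. The recovered shares need not hold for these data. Deviations from culture means correlated between ENRI and WENRC libraries of the same mouse (r = 0.41 across genes), which the labels pair. Since each date holds 1 library of either culture, a part of the date in this correlation was not tested. For RANKL only numbers are shared (r = -0.20 with ENRI and -0.32 with WENRC), so its numbers pair nothing.

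Genes named are those called, at most 12 per comparison, those with the highest authors' fold within 5 kb (at most 10 per list), the 2 highest per kb in each family, the partners of called genes and at most 8 called signalling genes. The genes and lists were chosen with earlier results of these data known. Promoters came from RefSeq (GRCm38.p6) by symbol. From the marker and signalling lists, 1 gene each is not reported here and was left out of the list's counts.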

Additional observations from a re-analysis of the deposited data

Results flagged for a closer look

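Il1rn, the IL-1 receptor antagonist, moved in opposite directions in the 2 mice. The WENRC minus ENRI difference was -1.30 (log2) in mouse 1 and 2.39 in mouse 2. The mouse 1 ENRI library was at 9.25 and the mouse 2 ENRI library at 5.48, while the WENRC libraries were at 7.95 and 7.86. With 1 library per mouse and culture the difference between the mice was not tested.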

How the results depend on the processing

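The number of genes called changed most with the libraries in the fit. Leaving out 1 library at a time gave 1 to 18 calls for RANKL over ENRI, 0 to 13 for RANKL over WENRC and 0 to 19 for WENRC over ENRI, against 12, 8 and 10. With only the 4 libraries compared there were 10 calls for RANKL over ENRI, 13 for RANKL over WENRC and 0 for WENRC over ENRI. Over all 16563 genes tested these fits gave 1925, 5194 and 0 calls in the same order. Over 30 single-gene results and 420 alternatives, 292 kept the direction and the call, 128 kept the direction and lost the call, and 0 reversed. The 30 results had been picked as calls with no overlap between the libraries of the 2 cultures compared. Leaving out 1 library could therefore not reverse them, and the lack of reversals is no support. Il18 in RANKL over ENRI was the single result that lost no call. With the replicate number as a replicate block there were 11 calls for RANKL over ENRI, 8 for RANKL over WENRC and 7 for WENRC over ENRI, where the mouse is a true pairing, and the mouse block with the 4 ENRI and WENRC libraries alone gave 0. Over all genes these fits gave 2712, 1465, 1506 and 124 calls in the same order. Crossing the RANKL numbers in the block, an alternative chosen after seeing the data, gave 11 and 8 calls, beside 3410 and 1784 over all genes. Recentring on upper quartiles moved the median of all genes in RANKL over WENRC from -0.01 to -0.12 and gave 9 calls, beside 2336 over all genes. The authors' deposited adjusted p gave 12, 12 and 7 calls, beside 19.6%, 27.8% and 12.5% of all genes. Of the 82 genes, 44 had a RANKL-higher H3K27me3 region at any distance and 8 within 1 kb. At a fold of at least 4, 5 had such a region within 5 kb. For WENRC-higher regions the counts were 38, 2 and 2 in the same order. The shares of all listed genes at these settings are not given here, so these counts cannot be set against a background. With 2 libraries per culture, 1 pooled H3K27me3 value each and a GRO-seq depth that is not known, small changes of low genes were not detectable, and the cause of the lost calls was not tested.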
